A study of Homo sapiens with 6 samples.

Results

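The stathmins *STMN1*, *STMN2*, *STMN3* and *STMN4*, the microtubule-associated proteins *MAP6*, *MAP1B*, *MAP2* and *MAPT*, the tau kinase *TTBK1* and the cell cycle exit gene *CEND1* were followed across 6 RNA-seq libraries. These 10 genes of 56811 were matched by symbol, and they were picked with results of this same comparison known. Their differences between groups, the errors and the side of the threshold on which they fell in the fit to all genes are therefore given as a description and are no independent evidence of a difference. The control hairpin, sh-control, was expressed in 3 of them, and the other 3 were labelled as expressing a short-hairpin RNA (shRNA) against *RREB1*, which encodes a zinc finger transcription factor. All 6 came from HEK293T, a human embryonic kidney line that carries the SV40 large T antigen, grown in DMEM with 10% FBS. The methods describe stable lines made by lentiviral delivery of the hairpins and drug selection, and the labels do not say whether the libraries of a group came from separate cultures. Standard errors and p-values therefore measure only the spread between these libraries, which may be technical.

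Microtubules are polymers of α- and β-tubulin that grow and shrink at their ends. Stathmins bind free tubulin dimers and favour shrinkage, whereas the structural microtubule-associated proteins bind the polymer and stabilise it. *STMN1* is used widely by dividing cells, and the other stathmins are best known from neurons, where tau (*MAPT*) is concentrated in axons and *MAP2* in dendrites.

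Reads were counted on the strand of the gene and scaled by edgeR's TMM method to CPM, or counts per 1000000 reads assigned to genes. Between 23362197 and 33044061 reads lay on genes in sh-control and between 12257054 and 26145877 in the sh-*RREB1*-labelled libraries, where the lowest was replicate 3. In that library 52.1% of aligned reads fell at more than one position, compared to 3.66% to 7.63% in the others. *RREB1*, the targeted gene, was at 27.1, 25.1 and 26.5 CPM in sh-control compared to 23.7, 24.6 and 23.1 CPM in the sh-*RREB1*-labelled libraries. Its log2 fold change was −0.14 (SE 0.13, edgeR adjusted p = 0.489), and −0.36 (adjusted p = 0.0541) after correction for each library's trend on GC content and length. The groups did not overlap (two-sided exact permutation test, p = 0.1, the lowest value possible with 3 libraries in each group). The log2 fold change of *RREB1* was below 0 in every fit. Its lowest adjusted p was 0.0109, at −0.37, in the edgeR fit with this correction and a term for replicate number. The threshold used below asks for a change of more than 2-fold, so a smaller fall could not pass it. *RREB1* passed in none of the fits. A clear reduction was thus not seen, and each direction given here rests on the labels. Of 7 markers of HEK293 cells, 6 averaged 1 CPM or more. The list summed to 426 to 493 CPM in sh-control and 715 to 834 CPM in the sh-*RREB1*-labelled libraries. *VIM* alone averaged 339 and 570 CPM of this sum, and 0 of the 7 were called. Of 9 markers of neurons, *SYT1*, *SYP* and *GAP43* alone averaged 1 CPM or more, and the summed level was 45.5 to 51.7 and 48.3 to 55.3 CPM. *SYT1* alone averaged 40.3 and 41.6 CPM of it. *NEFL* and *NEFM*, counted above as HEK293 markers, are also in the list of 16 neuronal markers below. Their means went from 25.2 to 46.8 and from 18.5 to 30.1 CPM, and neither was called. Of the 13 tested in that list, 9 had a log2 fold change above 0 and 4 below. The neuronal RNA-binding protein genes *RBFOX3*, *ELAVL3* and *ELAVL4* had fewer than 10 reads over all 6 libraries. Of 5 glial markers, 3 had a mean of at least 1 CPM, *SOX10* had 0 reads, and the sum was 7.15 to 7.72 and 6.17 to 8.11 CPM. Of 4 markers of blood and endothelium, *CD34* alone averaged 1 CPM or more, it was called higher, and the sum was 1.17 to 1.32 and 2.25 to 2.94 CPM. The part of other cell types in the results was not tested, and in bulk RNA fewer cells of a type and less RNA per cell cannot be told apart.

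A gene was called differentially expressed by edgeR's quasi-likelihood test when its Benjamini-Hochberg adjusted p was under 0.01 and its level differed by a log2 fold change of more than 1 in either direction. That was so for 3.38% of the 23617 genes tested, with 2.69% called higher and 0.690% called lower in the sh-*RREB1*-labelled libraries. All 10 genes passed the minimum of 10 reads summed over the libraries. *STMN4*, *MAP6*, *MAP2*, *TTBK1* and *CEND1* were called higher, *STMN2* was called lower, and *STMN1*, *STMN3*, *MAP1B* and *MAPT* were not called. The groups did not overlap for 9 of the 10, *MAPT* being the exception, and they did not overlap for 40.9% of all genes tested. Because these genes were picked from this comparison, nothing is read from their share. The 6 calls were also made when each library was corrected for its trend on GC content and length, a correction under which 3.0% of all genes were called, and with DESeq2, which called 7.01%.

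**Figure D1:**
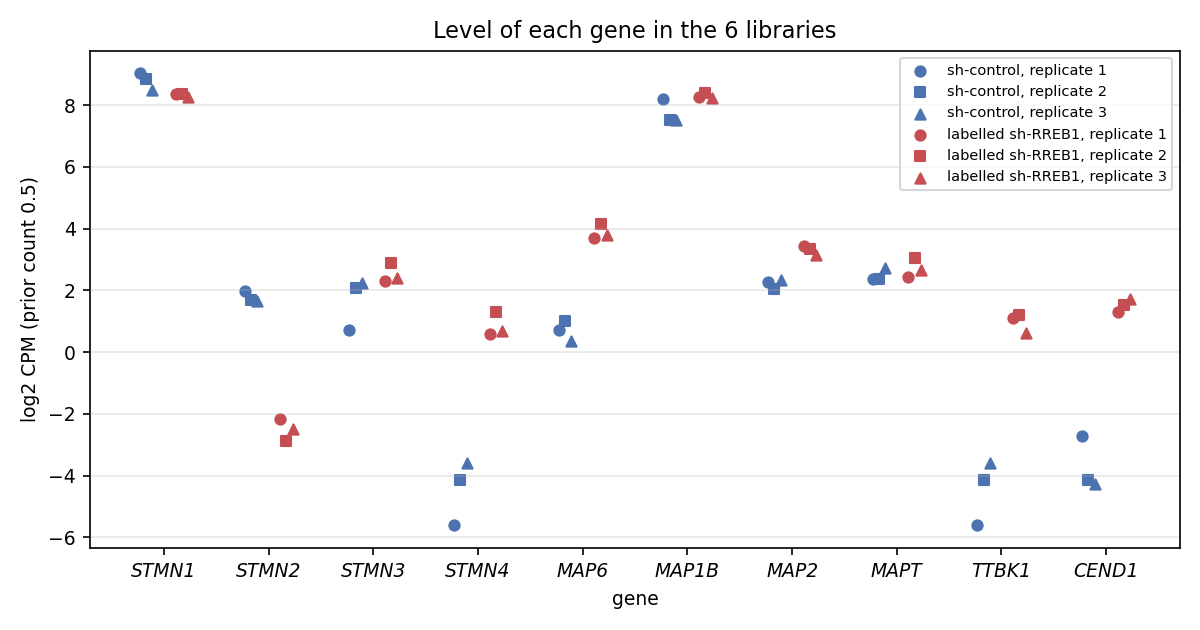
Level of each gene (log2 CPM, prior count 0.5) in the 3 sh-control libraries (blue) and the 3 sh-*RREB1*-labelled libraries (red), with a marker shape for each replicate number. *STMN2* fell from 3.11 to 3.95 CPM to 0.115 to 0.201 CPM, *STMN4*, *TTBK1* and *CEND1* lay at 0 to 3 reads in each sh-control library, and the groups of *MAPT* overlapped.

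*STMN1* (ENSG00000117632, chromosome 1, 25884181 to 25906991 of GRCh38) encodes stathmin itself. It was at 522, 457 and 358 CPM in replicates 1, 2 and 3 of sh-control. It was at 327, 325 and 307 CPM in the corresponding sh-*RREB1*-labelled replicates. The sh-control libraries spread widely, and all of them lay above the others. The mean was 446 ± 82.6 CPM (SD, n = 3) and 320 ± 10.9 CPM (SD, n = 3), with a log2 fold change of −0.48 (SE 0.14, 95% confidence interval −0.80 to −0.16), under the 2-fold threshold.

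*STMN2* (ENSG00000104435, chromosome 8, 79611117 to 79666158), known also as SCG10, is found in growth cones and takes part in axon growth. It had 91, 88 and 100 reads in the sh-control libraries, or 3.95, 3.23 and 3.11 CPM. It had 5, 3 and 2 reads in the sh-*RREB1*-labelled libraries, or 0.201, 0.115 and 0.158 CPM. Every sh-control library was far above every other, and *STMN2* was the only one of the 10 genes called lower. After scaling for depth, the summed counts were 21.6 times as high in sh-control (95% interval 11.6 to 45.5, counting error only). The fitted log2 fold change was −4.40 (SE 0.31) and ran from −4.67 to −4.17 with each library left out. Without the library labelled sh-*RREB1* replicate 3 it was −4.41 and was no longer called.

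*STMN3* (ENSG00000197457, chromosome 20, 63639705 to 63657682), known also as SCLIP, was at 1.60, 4.22 and 4.70 CPM in the sh-control libraries. It was at 4.86, 7.33 and 5.22 CPM in the sh-*RREB1*-labelled libraries. The groups came close, with sh-control replicate 3 just under the lowest of the other group and sh-control replicate 1 far under its own group. The log2 fold change was 0.72 (SE 0.36, 95% confidence interval −0.10 to 1.54) and the gene was not called. Its exons hold 63.6% GC, and with the trend on GC content removed the value was −0.44 (SE 0.15), so its direction depended on that correction.

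*STMN4* (ENSG00000015592, chromosome 8, 27235308 to 27258420), known also as RB3, had 0, 1 and 2 reads in the sh-control libraries. It had 37, 64 and 20 reads in the sh-*RREB1*-labelled libraries, or 1.49, 2.44 and 1.58 CPM. The gene was thus at the limit of detection in one group and low but counted in all libraries of the other. The depth-scaled ratio of summed counts was 52.2 (95% interval 17.4 to 257, counting error only). The fitted log2 fold change of 5.50 (SE 0.54) depends on the prior count at so few reads. It was not called without sh-control replicate 2 (5.47), sh-*RREB1* replicate 1 (5.65) or sh-*RREB1* replicate 3 (5.59).

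Levels were compared between genes as CPM per kilobase of exon. *STMN1* made up 94.2% to 97.1% of the summed stathmin level in each of the 6 libraries. Among the rest, *STMN2* made up 78.5%, 53.0% and 49.3% of the level of *STMN2*, *STMN3* and *STMN4* together in sh-control. It made up 4.57%, 1.74% and 3.40% in the sh-*RREB1*-labelled libraries. *STMN2* was level with *STMN3* or above it in sh-control and far below it in the other group. *STMN3* made up 21.5%, 46.7% and 50.1% in sh-control and 74.6%, 75.3% and 75.6% in the sh-*RREB1*-labelled libraries. *STMN4* made up 0%, 0.371% and 0.608%, compared to 20.9%, 23.0% and 21.0%. With the longest coding transcript as the length, *STMN3* was also above *STMN2* in sh-control replicates 2 (1.80 and 1.70 CPM per kilobase) and 3 (2.0 and 1.63), so which of the pair led in sh-control depended on the length used.

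**Figure D2:**
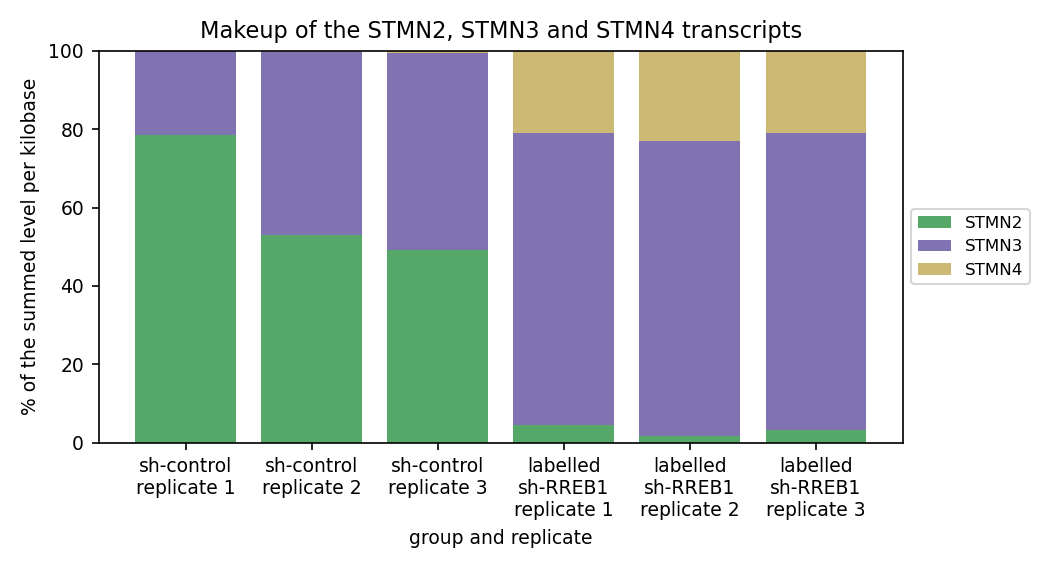
Share (%) of *STMN2*, *STMN3* and *STMN4* in their summed level per kilobase of exon, with a stacked bar for each library that adds up to 100%. *STMN2* took 49.3% to 78.5% in sh-control and 1.74% to 4.57% in the sh-*RREB1*-labelled libraries, where *STMN4* took 20.9% to 23.0%.

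*MAP6* (ENSG00000171533, chromosome 11, 75586918 to 75669038), known also as STOP, protects microtubules from depolymerising in the cold. It had 37, 54 and 41 reads in the sh-control libraries, or 1.60, 1.98 and 1.28 CPM. It had 321, 467 and 175 reads in the sh-*RREB1*-labelled libraries, or 12.9, 17.8 and 13.8 CPM. Each of these was far above the highest sh-control library. The mean was 1.62 ± 0.354 CPM (SD, n = 3) and 14.9 ± 2.62 CPM (SD, n = 3), and the log2 fold change was 3.20 (SE 0.23). *MAP6* was the only one of the 10 genes called in all 20 alternative fits, with values from 2.58 to 3.34.

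*MAP2* (ENSG00000078018, chromosome 2, 209424047 to 209734147) had 110, 111 and 160 reads in the sh-control libraries, or 4.77, 4.08 and 4.98 CPM. It had 268, 264 and 112 reads in the sh-*RREB1*-labelled libraries, or 10.8, 10.1 and 8.86 CPM. The libraries of each group were close to each other, and the gap between the groups was wider than either spread. The mean was 4.61 ± 0.472 CPM (SD, n = 3) and 9.90 ± 0.964 CPM (SD, n = 3), and the log2 fold change was 1.11 (SE 0.17), just inside the 2-fold threshold. The call held without sh-control replicate 1. It was lost without sh-control replicate 2 (0.997) or 3 (1.14) and without sh-*RREB1* replicate 1 (1.04), 2 (1.10) or 3 (1.18). With the trend on GC content removed the value was 1.27 (SE 0.14), and *MAP2* was called in all 6 fits that leave out a library.

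*MAP1B* (ENSG00000131711, chromosome 5, 72107234 to 72209565), a microtubule-associated protein of developing axons, was at 293, 183 and 183 CPM in sh-control. It was at 305, 338 and 298 CPM in the sh-*RREB1*-labelled libraries. Sh-control replicate 1 lay just under the lowest library of the other group, and the other sh-control libraries were well under it. The mean was 220 ± 63.2 CPM (SD, n = 3) and 314 ± 21.4 CPM (SD, n = 3), the log2 fold change was 0.51 (SE 0.18, 95% confidence interval 0.10 to 0.93), and the gene was not called.

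*MAPT* (ENSG00000186868, chromosome 17, 45894527 to 46028334) encodes tau. Its level was 5.16, 5.14 and 6.66 CPM in the sh-control libraries. It was at 5.42, 8.33 and 6.33 CPM in the sh-*RREB1*-labelled libraries. The groups overlapped, and the log2 fold change was 0.24 (SE 0.22, 95% confidence interval −0.25 to 0.73) and −0.10 (SE 0.14) with the trend on GC content removed. No difference in *MAPT* was detectable at this depth, and the interval leaves room for a change in either direction.

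*TTBK1* (ENSG00000146216, chromosome 6, 43243481 to 43288258) encodes a kinase of the brain that phosphorylates tau and tubulin. It had 0, 1 and 2 reads in the sh-control libraries. It had 53, 60 and 19 reads in the sh-*RREB1*-labelled libraries, or 2.13, 2.29 and 1.5 CPM. As for *STMN4*, reads were counted in all libraries of one group and were nearly absent from the other. The depth-scaled ratio of summed counts was 56.9 (95% interval 19.1 to 280, counting error only), and the fitted log2 fold change was 5.61 (SE 0.50). It was not called without sh-control replicate 2 (5.58), sh-*RREB1* replicate 1 (5.56) or sh-*RREB1* replicate 3 (5.76). A tau kinase was called higher while its substrate *MAPT* was not called, and that contrast itself was not tested.

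*CEND1* (ENSG00000184524, chromosome 11, 787115 to 790113), known also as BM88, takes part in the exit of neuronal precursors from the cell cycle. It had 3, 1 and 1 reads in the sh-control libraries, or 0.130, 0.0367 and 0.0311 CPM. It had 61, 75 and 41 reads in the sh-*RREB1*-labelled libraries, or 2.45, 2.86 and 3.24 CPM. All of these were above every sh-control library. The depth-scaled ratio of summed counts was 45.8 (95% interval 19.3 to 143, counting error only), and the fitted log2 fold change was 5.42 (SE 0.41). It was not called without sh-control replicate 2 (5.15) or sh-*RREB1* replicate 3 (5.34).

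The GC content of the genes bears on several of these values. *TTBK1* and *CEND1* have exons with 62.2% and 66.3% GC, and their log2 fold changes were 4.60 (SE 0.48) and 4.05 (SE 0.54) with the trend removed. *STMN2*, *MAP1B* and *MAP2* have 42.0%, 44.6% and 42.5% GC, and their values with the trend removed were −4.13 (SE 0.29), 0.62 (SE 0.14) and 1.27 (SE 0.14). *STMN4* and *MAP6* have 50.8% and 54.2% GC and stood at 5.43 (SE 0.48) and 2.84 (SE 0.19). The 6 called genes therefore kept their direction and their call, and in each fit that left out a library with the trend removed all 6 were called.

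**Figure D3:**
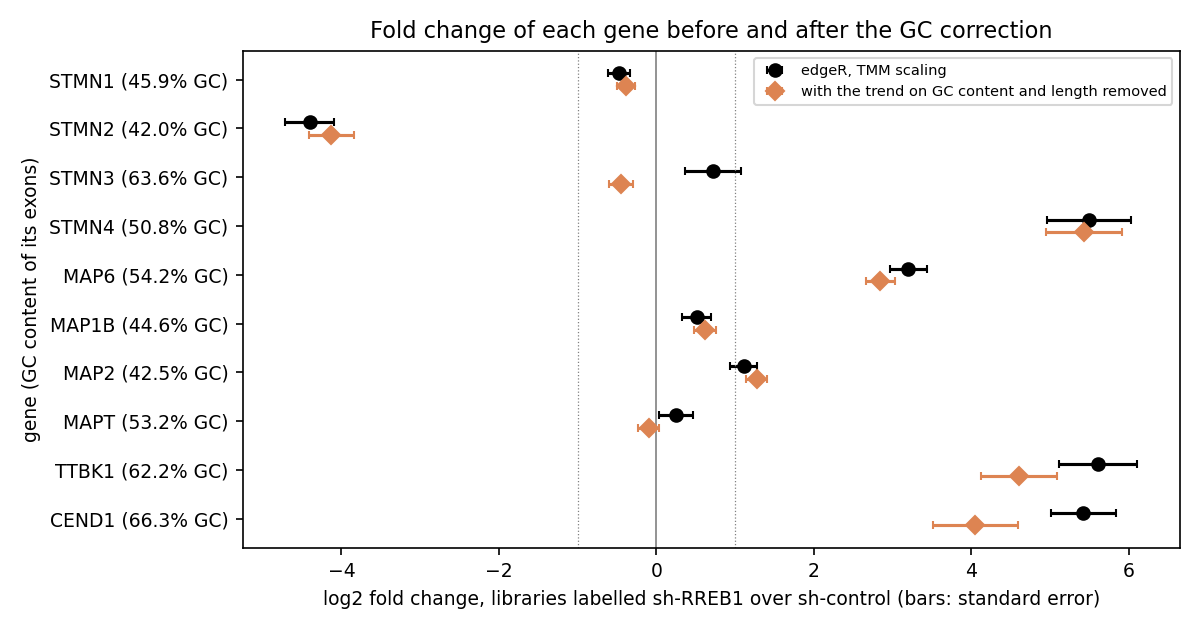
Log2 fold change of each gene, sh-*RREB1*-labelled libraries over sh-control, with the standard error as bars, from edgeR (black circles) and with the trend on GC content and length removed (orange diamonds). Dotted lines mark a log2 fold change of 1 in either direction, and *STMN3* and *MAPT* change sign, from 0.72 to −0.44 and from 0.24 to −0.10.

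RefSeq start sites on GRCh38.p14 were listed for 6 of the 10 genes, with 11 windows of 250 bases before the start. The windows of *TTBK1* (chr6:43243231-43243480, plus strand) and *CEND1* (chr11:790091-790340, minus strand) are shown because both genes went from almost no reads to counted in every library. They are written 5′ to 3′ with CG dinucleotides, the sites of DNA methylation, in capitals.
TTBK1: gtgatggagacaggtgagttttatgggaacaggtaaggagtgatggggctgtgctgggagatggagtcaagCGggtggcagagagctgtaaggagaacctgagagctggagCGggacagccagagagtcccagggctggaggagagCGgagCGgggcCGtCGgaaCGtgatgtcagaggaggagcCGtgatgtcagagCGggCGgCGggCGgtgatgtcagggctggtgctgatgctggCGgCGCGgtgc
CEND1: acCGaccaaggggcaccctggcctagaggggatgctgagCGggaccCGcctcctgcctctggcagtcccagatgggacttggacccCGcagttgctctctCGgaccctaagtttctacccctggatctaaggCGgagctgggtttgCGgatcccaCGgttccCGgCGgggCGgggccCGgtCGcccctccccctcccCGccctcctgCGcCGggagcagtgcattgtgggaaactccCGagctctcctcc
The *TTBK1* window holds 15 CG dinucleotides and 63.6% GC, and the *CEND1* window 17 and 68.8%. Over all 35116 promoters in the table the median was 11 CG dinucleotides (quartiles 3 and 23) and 58% GC. The windows of *MAP2*, which was also called higher, hold 4, 6 and 8 CG dinucleotides, and that of *STMN3*, which was not called, holds 28.

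3 short motifs were searched on both strands of the 11 promoter sequences, which hold these windows and run on past the start site. The letters CCACCCC, the core of the RAS-responsive element that RREB1 is named for, were in 1 of the 11 sequences and in 16.6% of all promoters. The letters CAGCACC and GACAGCG are parts of the site of REST, a repressor of neuronal genes. They were in 1 and 0 of the 11 sequences and in 7.75% and 4.11% of all promoters. The RAS-responsive letters were found on the other strand of *MAP1B*, which was not called, 199 bases before a start site inside the gene. The other of its 2 listed promoters, at the 5′ end of the gene, did not hold them. The CAGCACC letters were found on the other strand of *TTBK1*, 25 bases before the start. Both are shown in their surroundings with the motif in capitals, the first at chr5:72179577-72179605 and the second at chr6:43243445-43243473, plus strand.
MAP1B: cgggtatgccaGGGGTGGgggcgcgtcag
TTBK1: atgtcagggctGGTGCTGatgctggcggc
The motifs did not overlap each other. A match is a run of letters and not a measured site.

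The order of levels, as CPM per kilobase of exon, was led by *STMN1* and *MAP1B* in both groups. In sh-control *STMN1* was at 71.3 ± 13.2 (SD, n = 3) and *MAP1B* at 17.5 ± 5.04 (SD, n = 3). *STMN2* (1.68 ± 0.221) and *STMN3* (1.16 ± 0.550) followed, with ranges that overlapped. Next came *MAP2* (0.389 ± 0.0398), *MAPT* (0.307 ± 0.0472) and *MAP6* (0.255 ± 0.0558), each overlapping its neighbour. *CEND1*, *STMN4* and *TTBK1* were lowest, at 0.0405, 0.00997 and 0.00322. In the sh-*RREB1*-labelled libraries, *STMN1* was at 51.2 ± 1.74 and *MAP1B* at 25 ± 1.71, and *STMN2* had gone from the third place to the last at 0.0773 ± 0.0211. *MAP6* (2.34 ± 0.413), *STMN3* (1.92 ± 0.441) and *CEND1* (1.75 ± 0.244) took the places after *MAP1B*, each overlapping its neighbour. *MAP2* (0.836 ± 0.0814) stood apart, *STMN4* (0.555 ± 0.159) and *MAPT* (0.364 ± 0.0807) overlapped, and *TTBK1* was at 0.193 ± 0.0407. The exons of *STMN1* add up to 6247 bases and its longest coding transcript to 1712, so with the latter as the length its sh-control level was 260, and *MAPT*, at 0.830, moved above *MAP2*, at 0.460.

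The library kit keeps the strand, and the opposite-strand reads were a readout not used in choosing the genes. Over the 6 libraries, reads on the strand opposite to the gene were 23.5% of all reads at *MAPT*, 8.08% at *CEND1* and 3.95% at *MAP6*, compared to a median of 0.259% over 12553 coding genes. At *MAPT* they numbered 36, 48 and 66 in sh-control and 42, 55 and 31 in the sh-*RREB1*-labelled libraries, with no separation of the groups. Exons of the antisense gene *MAPT-AS1* share 75 bases with those of *MAPT*, and 1 read was counted on *MAPT-AS1* in all. At *MAP6* and *CEND1* the share was 10.8% and 44.4% in sh-control (16 of 148 and 4 of 9 reads). In the other group it was 2.92% and 6.35% (29 of 992 and 12 of 189 reads). The share is taken of all reads, which include the gene-strand reads known when the genes were picked. More gene-strand reads lower it, so its difference between the groups is no separate result. At *STMN1*, *STMN2*, *STMN3*, *STMN4*, *MAP1B*, *MAP2* and *TTBK1* the share was from 0% to 0.888%.

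The rest of the microtubule system was followed through 8 lists with 142 genes, of which 130 were tested. 5 were called higher and 0 lower, or 3.85% compared to 3.38% of all genes, and 72 had an unadjusted p under 0.05, a level that 34.2% of all genes tested reached. The lists were put together with earlier results of these data known. Their median log2 fold change was 0.12, beside 0.01 over all genes tested, and with the trend on GC content removed it was −0.05 beside −0.03.

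Of 21 tubulin genes, which encode the subunits of the polymer, 16 were tested and 0 were called by edgeR. Their median log2 fold change was 0.53 (0.17 with the trend on GC content removed), 8 had an unadjusted p under 0.05, and DESeq2 called 1, *TUBB2B*. *TUBA1B*, *TUBB* and the end-binding gene *MAPRE1* had the highest levels of all list genes, at 392, 336 and 102 CPM per kilobase in sh-control. Of 27 other microtubule-associated proteins, all tested, 1 was called higher. This was *DPYSL5*, a member of the collapsin response mediator family, at 20.3, 30.3 and 33.8 CPM in sh-control compared to 71.7, 90.5 and 73.4 CPM in the sh-*RREB1*-labelled libraries (log2 fold change 1.48, SE 0.20, edgeR adjusted p = 0.0036). The groups stood well apart, but the value was 0.83 with the trend on GC content removed and was not called. Doublecortin, *DCX*, a microtubule-binding protein of migrating neurons, had 0 reads in each sh-control library and 6, 7 and 3 reads in the sh-*RREB1*-labelled libraries. With 3 reads over the sh-control group as the floor, its level was at least 6.90-fold higher, a bound that leaves out the counting error of its 16 reads. *DCX* was called with the trend on GC content removed but not in the reported fit.

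Of 15 proteins that bind microtubule ends, all tested, 2 were called higher. *MAPRE3*, an end-binding protein of neurons and muscle, was at 2.34, 2.06 and 2.02 CPM in sh-control compared to 6.43, 7.71 and 7.12 CPM in the sh-*RREB1*-labelled libraries (log2 fold change 1.73, SE 0.18, edgeR adjusted p = 0.0019). The groups did not overlap, and the call held with the trend on GC content removed (1.35). *APC2* had 1, 1 and 2 reads in sh-control compared to 11, 13 and 9 in the others, and its value of 3.33 became 1.63 and was not called with the trend removed. Of 14 severing and depolymerising enzymes 12 were tested, 11 had an unadjusted p under 0.05, and the median was −0.43 (−0.21 with the trend removed). The kinesin *KIF18B* was the called gene among them and was higher, at 12.2, 15.5 and 20.5 CPM in sh-control compared to 34.5, 40.9 and 36.2 CPM in the sh-*RREB1*-labelled libraries (log2 fold change 1.21, SE 0.20, edgeR adjusted p = 0.0064). With the trend removed it was 0.50 and not called.

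Of 24 tubulin-modifying enzymes 23 were tested, and the tyrosine ligase family member *TTLL12* was the called gene. Its level was 8.50, 19.8 and 23.9 CPM in sh-control compared to 70.1, 102 and 78.1 CPM in the sh-*RREB1*-labelled libraries (log2 fold change 2.25, SE 0.33, edgeR adjusted p = 0.0048). The groups were far apart, and the call held with the trend on GC content removed (1.34). Of 19 kinases of tau, microtubule-associated proteins and stathmins 18 were tested, and 0 were called by edgeR or DESeq2, with 10 at an unadjusted p under 0.05. Of 6 tubulin folding cofactors, all tested, and of 16 neuronal markers, 13 of them tested, 0 were called by either tool, with 3 and 5 at an unadjusted p under 0.05. Without the correction for GC content, each of the 5 calls depended on single libraries. In the fits without sh-control replicate 2, sh-*RREB1* replicate 1 or sh-*RREB1* replicate 3, 0 of the list genes were called. Those fits called 9 of 22982, 25 of 22910 and 8 of 23304 genes in all, in that order. With the trend on GC content removed, 1 end-binding protein and 1 tubulin-modifying enzyme were called whichever library was left out.

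**Figure D4:**
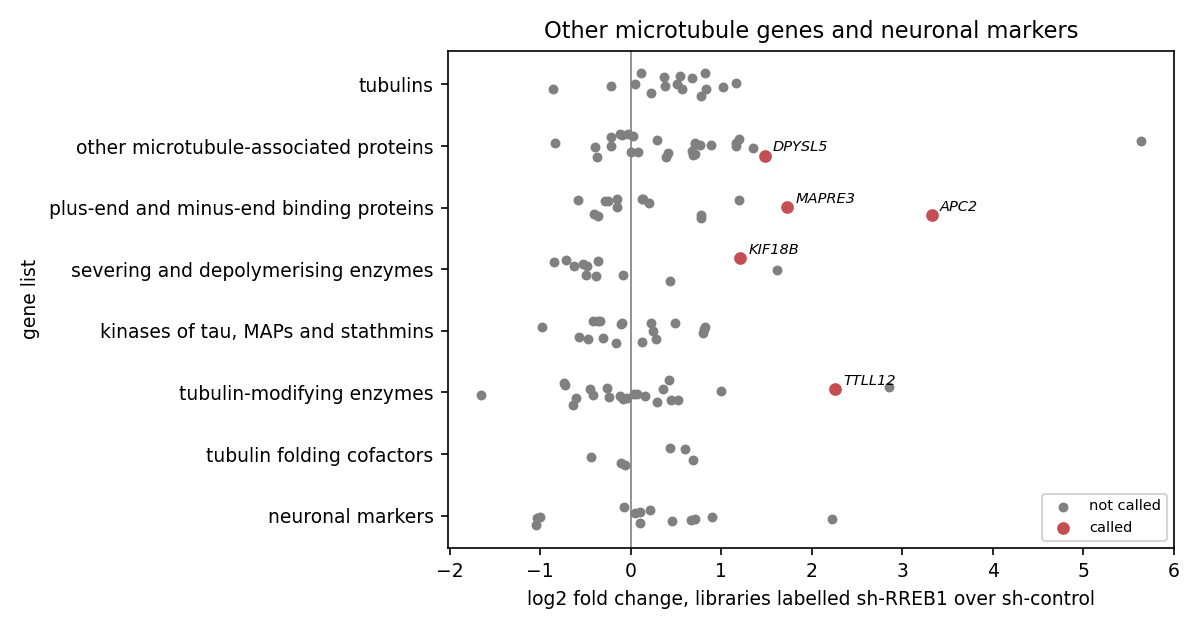
Log2 fold change (sh-*RREB1*-labelled libraries over sh-control) of every tested gene of the 8 lists, with a row for each list and points spread vertically for legibility. Red points with names are the 5 called genes, all higher. The tubulins lay mostly above 0 while the severing enzymes lay mostly below, with medians of 0.53 and −0.43. These lists have a median GC content of 53.2% and 40.0%. With the trend on GC content removed their medians were 0.17 and −0.21.

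As a description, the genes whose log2 CPM followed each called gene with a mean of at least 1 CPM most closely over the 6 libraries were found among 14594 genes of that level. *STMN4* was under it and was left out. For *STMN2* they were *TBC1D31* and *YME1L1* (Pearson r = 0.999 for both), and 1170 genes had an r above 0.95. For *MAP6* they were *GATA2-AS1* (0.9998) and *NRXN2* (0.999), with 417 genes above 0.95. For *MAP2* they were *FOXF2* (0.997) and *TNFRSF21* (0.995), with 392. These 6 points share their libraries and fall into the 2 groups, so any gene that separates the groups cleanly gives a high r. For *TTBK1* they were *HSF1* (0.999) and *BICD2* (0.999), with 1070 genes above 0.95, and for *CEND1* *KLF11* (0.997) and *LINC01963* (0.996), with 304.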

How the data were processed

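RNA-seq read counts of 6 HEK293T libraries were used, 3 sh-control and 3 labelled sh-RREB1. The authors aligned reads with STAR to hg38 and deposited raw read counts per gene and strand for each library, without normalization, plus a merged table whose 24635 identifiers all equalled the gene-strand counts. RNA was extracted with TRIzol and libraries were made from total RNA with a kit that keeps the strand, so gene-strand counts were taken. Summary lines without a gene were left out: reads on no gene numbered 8853232 to 13201426 per library and reads on more than one gene 948964 to 2608366.

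Of 57992 identifiers, 56948 had a symbol. Of identifiers with the same symbol, that with most reads was kept, and 56811 genes remained. Genes with at least 10 reads summed over the libraries (23617) were tested with edgeR 4.0.16 (TMM scaling, quasi-likelihood test, condition as the only term, Benjamini-Hochberg adjustment) in R 4.3.3. Coordinates, exonic lengths and GC content came from Gencode 44 on GRCh38. The trend on GC content and length was fitted per library with natural splines (5 degrees of freedom) and removed as an offset, which may take away real differences related to GC content. DESeq2 1.42.0 (the tool of the study's methods), median-ratio scaling, a minimum of 1 read, both strands, the merged table, a replicate block and each library left out were alternatives. On simulated counts of 23078 genes, 100% of 200 genes changed by a log2 value of 2 were recovered and 1 unchanged gene was called. The changed genes were drawn only from genes with more reads than *STMN2*, *STMN4*, *TTBK1* and *CEND1* had, so recovery at their counts was not simulated. Differences between libraries in the trend on GC content were not simulated either. Replicates differed by more than sampling noise (chi-square per degree of freedom 4.70 to 60.6), so each was counted separately.

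The genes and lists were chosen with earlier results of these data known. Named genes are the 10 genes, *RREB1*, called list genes with a mean of at least 1 CPM, the 3 list genes with the highest level, and the 2 genes nearest to each called gene over the libraries. *APC2*, *DCX* and *TUBB2B*, *DCLK1*, and the neighbouring genes were named after their values were seen. Intervals are at 95%.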

Additional observations from a re-analysis of the deposited data

Results flagged for a closer look

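Reads on the strand opposite to *MAP6* numbered 7, 4 and 5 in the sh-control libraries and 10, 12 and 7 in the sh-*RREB1*-labelled libraries, or 29 in the latter. This is a signal on a strand that entered the comparison only in the alternative fit that counts both strands. Scaled to reads on genes it lay above every sh-control library, at 0.402, 0.458 and 0.554 CPM compared to 0.304, 0.147 and 0.156 CPM. In sh-*RREB1* replicate 3, 24.2% of gene reads were on the opposite strand, compared to 4.91% to 5.46% in the other libraries. Per 1000000 opposite-strand reads, that library was lowest at 1.78, compared to 7.31 and 8.06 in its group and 2.71 to 5.81 in sh-control, so the separation of the groups depended on the scaling. Gene-strand reads were 132 and 963 in the same groups, so opposite-strand reads made up 3.95% of all reads at *MAP6* over the 6 libraries.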

How the results depend on the processing

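Each value was recomputed in 20 alternative fits. Of 23617 genes, 798 were called in the reported fit, 1656 with DESeq2, 1829 with a minimum of 1 read (33511 genes tested), 1707 with the replicate block, 8 to 1120 with each library left out, and 453 to 714 with each left out and the trend on GC content removed (499 when it was sh-control replicate 2 and 491 when it was sh-*RREB1* replicate 1). The lowest counts were 8, 9 and 25, on leaving out sh-*RREB1* replicate 3, then sh-control replicate 2, then sh-*RREB1* replicate 1. The higher genes were 79.6% of the calls in the reported fit and 60.6% with the trend removed, and 365 genes were called by both. Of the 10 genes described, 1 to 6 were called with a library left out, with 1, 2 and 3 in the fits without sh-*RREB1* replicate 3, sh-control replicate 2 and sh-*RREB1* replicate 1, and 6 in each such fit with the trend removed. The fits that leave out a library have fewer samples, and the cause was otherwise not tested. *STMN3* reversed with the trend removed (−0.44), with the replicate block as well (−0.43) and with sh-control replicates 1, 2 and 3 left out as well (−0.51, −0.38 and −0.43) and with sh-*RREB1* replicates 1, 2 and 3 left out as well (−0.37, −0.53 and −0.44). *MAPT* reversed under these same fits, in that order, at −0.10, −0.087, −0.059, −0.18, −0.055, −0.041, −0.14 and −0.10.

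List counts moved as follows. With DESeq2, 1 tubulin, 4 other microtubule-associated proteins and 2 severing enzymes were called. With a minimum of 1 read the counts were 1 tubulin, 6 associated proteins, 2 severing enzymes and 2 tubulin-modifying enzymes. With the replicate block they were 1 tubulin, 3 associated proteins, 2 severing enzymes, 1 kinase and 2 tubulin-modifying enzymes. With both strands counted, 1 end-binding protein and 2 tubulin-modifying enzymes were called. With the trend removed, with or without the replicate block, 2 associated proteins (*DCX* and *DCLK1* without it), 1 end-binding protein and 0 severing enzymes were called. With each library left out, the counts were 0 to 1 for associated proteins, 0 to 2 for end-binding proteins, 0 to 2 for severing enzymes and 0 to 1 for tubulin-modifying enzymes. With the trend removed too, they were 0 to 2, 1 to 1, 0 to 0 and 1 to 1.

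Same-numbered libraries did not pair throughout: their deviations correlated at 0.487, 0.385 and −0.275. The first 2 values were the highest for their sh-control replicate. For sh-control replicate 3 the highest was with sh-*RREB1* replicate 2, at 0.548. With 3 libraries in each group these values cannot settle whether the libraries are paired. The replicate block called the same 6 of the 10 genes. Depth limits *STMN4*, *TTBK1* and *CEND1*, with 3, 3 and 5 reads over the sh-control group.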

Other observations

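The nearest genes with a mean of at least 1 CPM on either side of the 6 called genes were read after their values had been seen. Of these 12 neighbours, 2 were called, where 3.38% of all genes tested were called. Their log2 fold change was above 0 for 9 and below 0 for 3, beside a median of 0.01 over all genes tested. Nothing is read from these counts. *SLC25A22*, a mitochondrial glutamate carrier gene, lies 0.362 kb upstream of *CEND1* on the same strand of chromosome 11 (790475 to 798281). It had 15, 25 and 55 reads in the sh-control libraries and 211, 246 and 88 in the sh-*RREB1*-labelled libraries. Its log2 fold change was 2.89 (SE 0.32, edgeR adjusted p = 0.0022) and 1.55 with the trend on GC content removed, and it was called in both fits. *SLC25A22* and *CEND1* thus went the same way, and whether their transcripts are linked was not tested.

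*DNPH1*, a nucleotide hydrolase gene on the other strand near *TTBK1*, went from a mean of 8.29 to 21.5 CPM (log2 fold change 1.37, SE 0.25, edgeR adjusted p = 0.0085), but was at 0.20 and not called with the trend on GC content removed. *ZNF318*, on the other side of *TTBK1*, was at −0.46 (SE 0.19), and *GATD1-DT*, on the other side of *CEND1*, at 0.73 (SE 0.37). The neighbours of *MAP2*, *PIKFYVE* and *UNC80*, were at −0.56 (SE 0.12) and 0.54 (SE 0.29). These 4 genes were not called. *STMN2* lies between *ZC2HC1A* and *HEY1*, at 0.03 (SE 0.31) and −0.36 (SE 0.11), and both were not called. The neighbours of *STMN4*, *DPYSL2* and *TRIM35*, were at 0.71 (SE 0.10) and 0.49 (SE 0.19) and were not called. *MAP6* lies between *SERPINH1* and *DGAT2*, at 0.92 (SE 0.25) and 0.76 (SE 0.29), neither of them called, and at 0.39 and 0.43 with the trend removed.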
